A study of Mus musculus with 40 samples.

Results

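HIRA, UBN1, UBN2, CABIN1, ASF1A, ASF1B, DAXX and ATRX are the proteins that deliver the replacement histone H3.3 to chromatin, and their 8 mouse genes were followed across 40 arrays. All probe sets that the annotation of the array assigns to these genes were taken, whatever their signal, which gave 24 probe sets of the 45101 on the array. Atrx had 7 probe sets, Hira 4, Ubn2 4, Cabin1 3, Ubn1 2, Asf1a 2, Asf1b 1 and Daxx 1. The 24 probe sets were not independent, since 5 of the 7 Atrx probe sets were designed on 1 expressed sequence tag.

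The arrays measured total RNA of the prefrontal cortex and the hippocampus of 8-week-old male C57BL/6 mice. Mutant mice carried Df(16)A on 1 of their chromosomes 16 (Df(16)A/+), a deletion that models a human microdeletion syndrome and that includes Hira, and wild-type littermates were the controls. No mouse was treated, the deletion is present in every cell of the body, and each of the 4 groups of genotype and region had 10 arrays. Values are log2 GCRMA signals, so that a difference of 1 is a factor of 2 in signal.

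Histone H3.3 is made throughout the cell cycle and is placed into chromatin without DNA replication, and in neurons, which no longer divide, it becomes the main form of histone H3. The HIRA complex, in which HIRA is joined by UBN1 or its paralogue UBN2 and by CABIN1, deposits H3.3 at active genes and promoters, and ASF1A hands it the histones. DAXX, together with the chromatin remodeller ATRX, deposits H3.3 at telomeres and at repeats beside the centromeres.

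The start of Hira lies on chromosome 16 and that of Atrx on chromosome X. Their promoters are printed because these were the genes with a probe set that changed in both regions. Each is 300 bases around the annotated start, from RefSeq (GRCm38.p6), written 5′ to 3′ on the strand of the gene. The capitals mark matches on either strand to 3 short motifs, none of which overlap here. The GC box is GGGCGG. The letters of the second motif, CCAAT, also give its name. The ETS core is CGGAAG.
Hira, chr16:18876500-18876799, + strand: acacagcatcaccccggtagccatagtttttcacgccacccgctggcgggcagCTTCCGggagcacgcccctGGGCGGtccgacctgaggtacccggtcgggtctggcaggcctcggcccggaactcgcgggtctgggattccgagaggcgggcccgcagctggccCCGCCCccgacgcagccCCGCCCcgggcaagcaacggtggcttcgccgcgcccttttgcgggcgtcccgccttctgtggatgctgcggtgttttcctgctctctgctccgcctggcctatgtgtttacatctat
Atrx, chrX:105929323-105929622, − strand: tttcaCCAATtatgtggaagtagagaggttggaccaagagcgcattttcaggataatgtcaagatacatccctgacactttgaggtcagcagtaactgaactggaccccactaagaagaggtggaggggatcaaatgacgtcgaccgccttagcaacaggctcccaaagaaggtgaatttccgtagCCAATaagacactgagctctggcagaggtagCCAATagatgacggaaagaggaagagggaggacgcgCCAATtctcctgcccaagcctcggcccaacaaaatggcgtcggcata
The Hira window held 3 GC boxes, 1 ETS core and no CCAAT box, with a GC content of 69.0% and 31 CpG dinucleotides. The Atrx window held 4 CCAAT boxes and neither of the other motifs, with a GC content of 50.3% and 11 CpG dinucleotides. Over all 32851 promoters of the same length, 35.7% held a GC box, 37.4% a CCAAT box and 16.9% an ETS core, and the median was 52.7% GC with 7 CpG dinucleotides. Of the other members, Ubn1 also lies on chromosome 16, with its start in the window chr16:5049807-5050106. Ubn2 lies on chromosome 6, Cabin1 and Asf1a on 10, Asf1b on 8 and Daxx on 17.

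The labels were checked on the genes of the deleted interval. Over 18 measured interval genes other than Hira, the mean difference from wild type was −1.27 to −1.07 in the Df(16)A/+ arrays of the prefrontal cortex and −0.11 to 0.09 in the wild-type arrays. In the hippocampus the corresponding ranges were −1.09 to −0.90 and −0.10 to 0.07, so every array stood with its label. Of 8 hippocampal marker genes, 8 were measured in the hippocampus and 4 in the prefrontal cortex, and of 8 neocortical markers 7 were measured in both. The regions differed in the spread of their values (95th percentile 11.6 to 11.7 against 10.9 to 11.1), so levels in the 2 regions are given side by side and were not tested against each other. In such tissue samples fewer cells of a type and less RNA per cell cannot be told apart. The array records show 5 hybridization runs, separated by gaps of over 30 minutes, which did not hold the genotypes equally. Cortical arrays came from run 3 (3 wild-type, 1 Df(16)A/+), run 4 (7 wild-type, 5 Df(16)A/+) and run 5 (4 Df(16)A/+). Hippocampal arrays came from run 1 (1 wild-type), run 2 (9 wild-type, 2 Df(16)A/+) and run 3 (8 Df(16)A/+), so run 5 and the hippocampal part of run 3 had no control.

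A probe set was tested where it exceeded 4 (log2) in at least 10 of the 20 arrays of a region, and 16 of the 24 passed in each region, for 7 of the 8 genes. The other 8 were 3 of Hira, 2 of Ubn2, 2 of Cabin1 and the single probe set of Asf1b. In the prefrontal cortex 2 of the 16 probe sets changed at an adjusted p under 0.05 (limma, Benjamini-Hochberg over 21653 probe sets), 1 higher and 1 lower in Df(16)A/+. Among all probe sets tested there 18.5% changed, 5.94% higher and 12.5% lower. In the hippocampus 4 of the 16 changed, 3 higher and 1 lower, beside 6.47% of 21153 probe sets, 5.19% higher and 1.28% lower. The split of all calls moved with the scaling: quantile normalization gave 1685 higher and 2251 lower in place of 1286 and 2714 in the prefrontal cortex. In the hippocampus it gave 958 and 552, and centring each array on its median 1232 and 81, in place of 1098 and 271. The count also moved with the batch: blocking on the run left a hippocampal count of 33 in place of 1369, 11 higher and 22 lower. Blocking on the chip lot left a cortical count of 986 in place of 4000, 492 higher and 494 lower. Leaving out single arrays gave 789 (without wild-type replicate 2) to 2323 (without Df(16)A/+ replicate 2) calls in the hippocampus. The median difference of the 16 member probe sets was 0.06 for the cortex and 0.13 for the hippocampus, and over all probe sets tested it was −0.02 and 0.02.

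**Figure D1:**
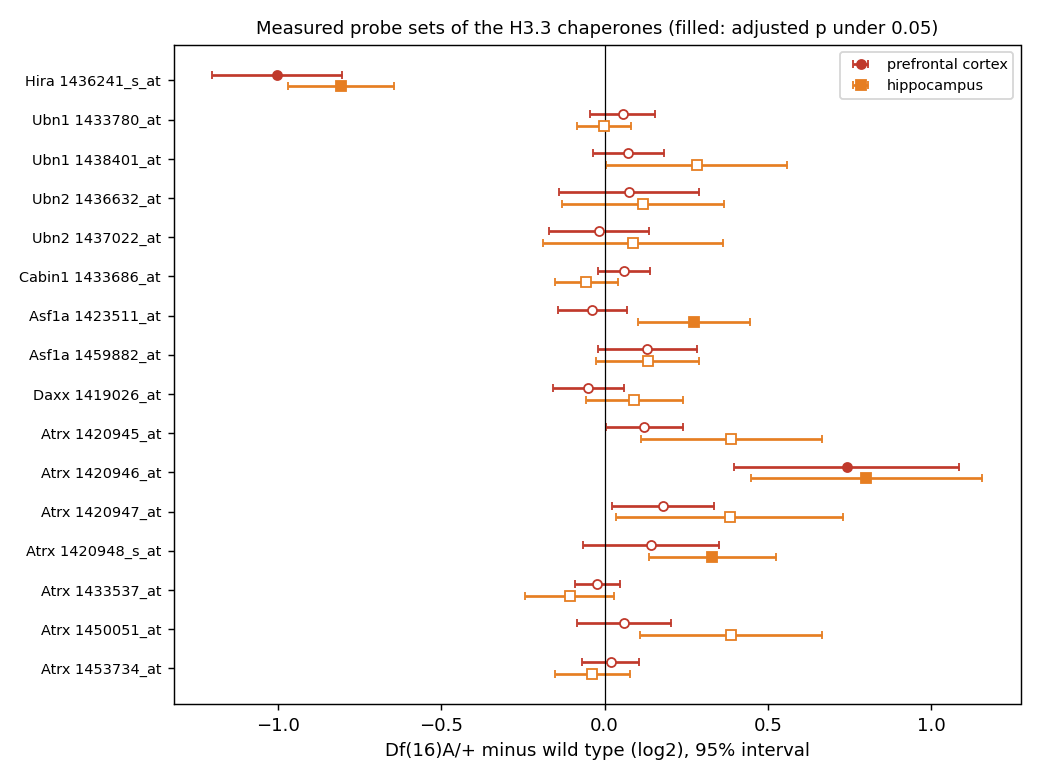
Difference between Df(16)A/+ and wild type (log2, horizontal axis) with its 95% interval for the 16 measured member probe sets, circles for the prefrontal cortex and squares for the hippocampus, filled where the adjusted p was under 0.05. Hira 1436241_s_at stands at −1.00 and −0.81, Atrx 1420946_at at 0.74 and 0.80, and the remaining 14 lie between −0.11 and 0.39.

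The Hira signal fell in Df(16)A/+ mice: 50.0% of the wild-type level was left for the cortex and 57.2% for the hippocampus. With the filter, all tests of Hira rest on 1 probe set, 1436241_s_at, whose suffix marks probes that may match transcripts of several genes. It had a lowest, median and highest value of 6.28, 6.72 and 7.09 in the 10 wild-type prefrontal arrays and of 5.53, 5.69 and 6.07 in the 10 Df(16)A/+ arrays. The 2 groups did not overlap, which was the case, with lower values in Df(16)A/+, for 0.776% of all probe sets tested. The mean fell from 6.73 ± 0.27 to 5.73 ± 0.17 (SD, n = 10 each), a difference of −1.00 ± 0.096 (SE, limma adjusted p = 7.2e-07). The 95% interval of the share left was 43.5% to 57.3%.

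In the hippocampus the same probe set had a lowest, median and highest value of 5.36, 5.62 and 5.98 in wild type and of 4.75, 4.84 and 5.04 in Df(16)A/+. The groups again stood fully apart, as did 0.142% of all probe sets in that direction. The mean fell from 5.67 ± 0.23 to 4.86 ± 0.10 (SD, n = 10 each), a difference of −0.81 ± 0.078 (SE, limma adjusted p = 1.1e-06), and 57.2% of the wild-type signal was left (95% interval 51.1% to 64.0%). The change in the hippocampus was smaller by 0.20 ± 0.13 (SE) than in the prefrontal cortex, a difference between regions that did not pass the test (95% interval −0.06 to 0.45, limma adjusted p = 0.37).

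The fall of Hira was as large within hybridization runs as across them. In run 4 of the prefrontal cortex the 7 wild-type arrays spanned 6.28 to 7.09 and the 5 Df(16)A/+ arrays 5.53 to 5.94, a difference of −1.04 (limma adjusted p = 0.00083 in that run alone). In run 2 of the hippocampus the 9 wild-type arrays spanned 5.36 to 5.98 and the 2 Df(16)A/+ arrays stood at 4.75 and 4.85. With the run as a block the difference was −1.03 for the cortex and −0.84 for the hippocampus (limma adjusted p = 2.7e-05 and 0.0048). In run 2 alone, with 2 Df(16)A/+ arrays, it was also −0.84 but did not pass (limma adjusted p = 0.073).

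The other 3 probe sets of Hira lay near or below the filter and did not enter the main tests. Probe set 1450050_at lay between 3.48 and 4.04 in all arrays, with means of 3.97 ± 0.05 and 3.86 ± 0.14 (SD, n = 10 each) in wild-type and Df(16)A/+ prefrontal cortex. Probe set 1450049_a_at ran from 3.18 over 4.00 to 4.62 in wild-type prefrontal cortex and from 2.60 over 2.91 to 3.12 in Df(16)A/+. These groups did not overlap, although only 5 of the 20 arrays exceeded 4. Without the filter 3 member probe sets changed in the prefrontal cortex in place of 2, the third being 1450049_a_at, which was lower by a difference of −1.10 (limma adjusted p = 0.00049). In the hippocampus its wild-type values spanned 2.77 to 5.04 and the Df(16)A/+ values 2.49 to 2.79, with an overlap. Probe set 1459103_at stayed at 2.00 to 2.33 in every array of both regions.

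**Figure D2:**
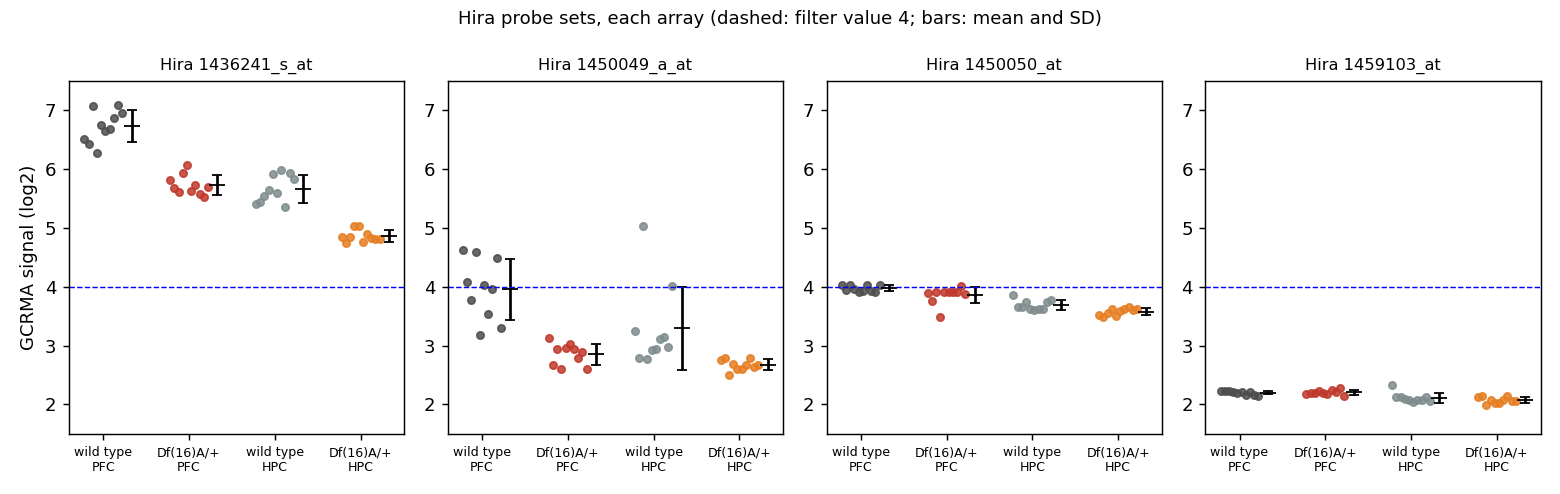
GCRMA signal (log2, vertical axis) of the 4 Hira probe sets in each of the 40 arrays by genotype and region (PFC, prefrontal cortex, HPC, hippocampus), with mean and SD as bars and the filter value of 4 as a dashed line. In 1436241_s_at every Df(16)A/+ array lies below every wild-type array of its region, and 1459103_at stays near the bottom in all groups.

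Among the 19 measured genes of the deleted interval, Hira kept a comparatively large share of its signal. Of the 18 others, 14 had less left in the prefrontal cortex, with a median of 42.6%, and 15 in the hippocampus, with a median of 47.4%. The wild-type level of Hira was itself low for the interval: only 2 of the 18 others lay below it among cortical arrays and 3 among hippocampal arrays.

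Genes whose signal ran most like that of Hira over the 20 arrays of each region were interval genes. Ranked by the lower of the Pearson correlations in the 2 regions over 10505 genes, the first 5 were Ranbp1 (r = 0.91 and 0.92), Tango2 (0.91 and 0.92), Slc25a1 (0.91 and 0.90), Dgcr6 (0.89 and 0.92) and Dgcr2 (0.89 and 0.90). Of the first 20, 16 were interval genes. These points share the genotype difference, so the order describes the deletion. After the mean of each of the 4 groups was subtracted, the first 5 of 11318 genes over the 40 arrays were Plekhh1 (r = 0.58), Dok7 (0.49), Pllp (0.48), Clasp2 (0.48) and Osbpl1a (0.47), and none of the first 20 was an interval gene. These remaining correlations share hybridization runs and are given as a description.

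The partners of HIRA in its complex did not pass the test in either region. Ubn1, which binds HIRA and H3.3, had means of 7.58 ± 0.06 and 7.63 ± 0.14 (SD, n = 10 each) in wild-type and Df(16)A/+ prefrontal cortex on 1433780_at, and of 7.20 ± 0.07 and 7.20 ± 0.08 in the hippocampus. The 95% interval of the difference was −0.04 to 0.16 and −0.08 to 0.08. Its brighter probe set, 1438401_at, had a lowest, median and highest value of 7.78, 8.30 and 8.70 in wild-type hippocampus and of 7.78, 8.54 and 9.12 in Df(16)A/+.

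The hippocampal groups overlapped for most arrays of 1438401_at, with a difference of 0.28 ± 0.13 (SE, limma adjusted p = 0.20). Its 2 Df(16)A/+ arrays of run 2 stood at 7.78 and 8.20, inside the 7.78 to 8.70 of the 9 wild-type arrays of that run, and the 8 of run 3 at 8.47 to 9.12. The cortical values of 1438401_at differed by 0.07 (95% interval −0.04 to 0.18).

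Ubn2, the paralogue of Ubn1, was measured by 2 probe sets. Probe set 1436632_at differed by 0.08 (95% interval −0.14 to 0.29) in the prefrontal cortex and by 0.12 (−0.13 to 0.37) in the hippocampus. Probe set 1437022_at differed by −0.02 (−0.17 to 0.14) and by 0.09 (−0.19 to 0.36). The intervals thus leave room for changes of up to about 0.4 in the hippocampus. The other 2 Ubn2 probe sets lay between 1.35 and 3.85 in all arrays and did not enter the main tests.

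Cabin1 encodes the large subunit of the complex, first known as an inhibitor of calcineurin. Its one measured probe set, 1433686_at, ran from 8.33 over 8.50 to 8.54 in wild-type and from 8.43 over 8.52 to 8.76 in Df(16)A/+ prefrontal cortex. In the hippocampus it ran from 7.45 over 7.59 to 7.80 and from 7.45 over 7.55 to 7.72. Both pairs of groups overlapped. The differences were 0.06 (95% interval −0.02 to 0.14) and −0.06 (−0.15 to 0.04) (limma adjusted p = 0.30 and 0.48).

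Asf1a, the chaperone that passes H3.3 with H4 to HIRA, was higher in the hippocampus of Df(16)A/+ mice on 1 of its 2 probe sets and in their mean. Probe set 1423511_at ran from 7.89 over 8.30 to 8.55 in wild-type and from 8.21 over 8.55 to 8.84 in Df(16)A/+ hippocampus. The ranges overlapped, with 5 of 10 Df(16)A/+ arrays above every wild-type array. The mean rose from 8.26 ± 0.18 to 8.54 ± 0.20 (SD, n = 10 each), by 0.27 ± 0.082 (SE, limma adjusted p = 0.049). Averaged over both probe sets, Asf1a differed by 0.20 in the hippocampus (limma adjusted p = 0.016 over 10822 genes) and by 0.047 in the prefrontal cortex (limma adjusted p = 0.52).

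The call of 1423511_at was lost in 14 of the 20 fits that each left out 1 array, where adjusted p spanned 0.027 to 0.091 (limma). With the run as a block, which compared the genotypes only through 2 Df(16)A/+ arrays, the difference was 0.23 (limma adjusted p = 0.95). With the difference between the 3′ and 5′ beta-actin control probe sets as a covariate, a measure of RNA integrity, it was 0.20 (limma adjusted p = 0.15). The mean of both probe sets differed by 0.28 with the run as a block (limma adjusted p = 0.53), a fit added after the data were seen. That measure was 1.36 ± 0.17 in wild-type and 1.28 ± 0.06 in Df(16)A/+ hippocampus (SD, n = 10 each).

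Probe set 1423511_at differed by less than its spread in the prefrontal cortex, at −0.04 (95% interval −0.14 to 0.07). The test of the difference between regions gave 0.31 ± 0.098 (SE, limma adjusted p = 0.068). The dim Asf1a probe set 1459882_at differed by 0.13 in both regions without passing (limma adjusted p = 0.22 and 0.29). Asf1b, the paralogue tied to DNA replication in dividing cells, was under the filter in all arrays, with means of 2.62 ± 0.01 and 2.61 ± 0.07 in wild-type and Df(16)A/+ prefrontal cortex and of 2.26 ± 0.04 and 2.24 ± 0.03 in the hippocampus (SD, n = 10 each).

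Daxx, the H3.3 chaperone of the second pathway, did not pass the test. Its single probe set, 1419026_at, ran from 7.72 over 7.88 to 8.12 in wild-type and from 7.75 over 7.83 to 8.04 in Df(16)A/+ prefrontal cortex. The hippocampal values ran from 7.32 over 7.49 to 7.67 and from 7.36 over 7.60 to 7.87. The groups overlapped in both regions. The differences were −0.05 (95% interval −0.16 to 0.06, limma adjusted p = 0.54) and 0.09 (−0.06 to 0.24, limma adjusted p = 0.45).

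Atrx, the remodeller that works with DAXX, rose on 1 of its 7 probe sets in both regions. Probe set 1420946_at had a lowest, median and highest value of 7.72, 8.43 and 8.72 in wild-type prefrontal cortex and of 8.10, 9.33 and 9.56 in Df(16)A/+. In the hippocampus the values were 7.07, 7.62 and 7.93 against 7.35, 8.59 and 9.04. In each region 8 of the 10 Df(16)A/+ arrays lay above every wild-type array and the other 2 lay within the wild-type range.

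The cortical mean rose by 0.74 ± 0.17 (SE), 1.67-fold, and the hippocampal mean by 0.80 ± 0.17, 1.74-fold (limma adjusted p = 0.0048 and 0.0087). In the hippocampus this rise moved with the hybridization run. The 8 Df(16)A/+ arrays of run 3, which held no wild-type array of that region, stood at 8.28 to 9.04. The 2 Df(16)A/+ arrays of run 2 stood at 7.35 and 7.69, inside the 7.07 to 7.93 of the 9 wild-type arrays of that run.

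With the run as a block the hippocampal difference was −0.065 (limma adjusted p = 1.00), so genotype and run could be compared only through those 2 arrays. Among cortical arrays the 4 Df(16)A/+ arrays of run 5 stood at 9.27 to 9.56. The 1 Df(16)A/+ array of cortical run 3 stood at 8.86, above the 8.40 to 8.72 of the 3 wild-type arrays of that run. In run 4, which held both genotypes, the 5 Df(16)A/+ arrays spanned 8.10 to 9.38 and the 7 wild-type arrays 7.72 to 8.65. The difference there was 0.62 in run 4 alone and 0.56 with the run as a block, and neither passed the test (limma adjusted p = 0.14 and 0.053).

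**Figure D3:**
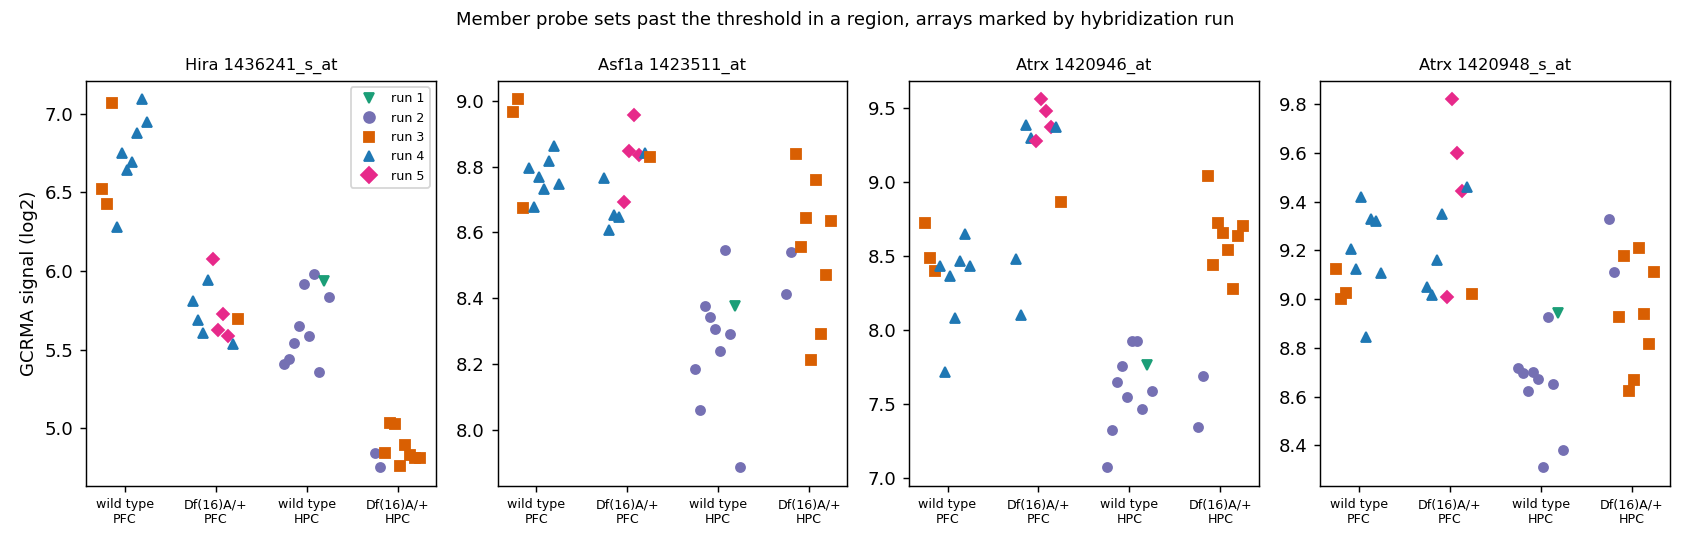
GCRMA signal (log2, vertical axis) in each array for the 4 member probe sets that passed the test in at least 1 region, by genotype and region, with the marker and colour giving the hybridization run. For Hira the genotypes separate within each run that holds both, and for Atrx 1420946_at the 2 hippocampal Df(16)A/+ arrays of run 2 lie among the wild-type arrays.

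The other Atrx probe sets gave smaller differences that were not all in the same direction. The brightest, 1433537_at, had means of 12.45 ± 0.07 and 12.43 ± 0.06 in wild-type and Df(16)A/+ prefrontal cortex and of 11.92 ± 0.08 and 11.81 ± 0.19 in the hippocampus (SD, n = 10 each). Its differences, −0.02 (95% interval −0.09 to 0.05) and −0.11 (−0.24 to 0.03), did not pass. Probe set 1453734_at also stayed close to wild type, at 0.02 (−0.07 to 0.11) and −0.04 (−0.15 to 0.08). Averaged over its 7 probe sets, Atrx was higher by 0.18 for the cortex and 0.31 for the hippocampus (limma adjusted p = 0.019 and 0.0030 over 10991 and 10822 genes). This mean gives most weight to 1 expressed sequence tag, on which 5 of the 7 were designed, and those 5 are not independent measures. With the run as a block, a fit added after the data were seen, these means differed by 0.12 and 0.12 and did not pass (limma adjusted p = 0.17 and 1.00).

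Probe set 1420948_s_at, whose suffix marks probes that may match transcripts of several genes, was called in the hippocampus alone. It ran from 8.31 over 8.68 to 8.95 in wild-type and from 8.62 over 9.02 to 9.33 in Df(16)A/+ hippocampus. The ranges overlapped, with 5 of 10 Df(16)A/+ arrays above every wild-type array. The mean rose by 0.33 ± 0.094 (SE, limma adjusted p = 0.039), and 11 of the 20 fits that each left out 1 array lost the call. With the run as a block the difference was 0.59 (limma adjusted p = 0.24), and in the prefrontal cortex it was 0.14 (95% interval −0.06 to 0.35). The actin measure of RNA integrity correlated with this probe set at −0.77 in cortical and −0.36 in hippocampal arrays. For 1420946_at these values were −0.44 and −0.30, for 1420945_at −0.66 and −0.23, and for 1450051_at −0.49 and −0.28. They were −0.15 and −0.29 for 1420947_at, 0.15 and 0.19 for 1433537_at, and −0.13 and 0.42 for 1453734_at.

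Probe sets 1420945_at, 1420947_at and 1450051_at differed by 0.39, 0.38 and 0.39 in the hippocampus without passing (limma adjusted p = 0.082, 0.16 and 0.083). The cortical differences were 0.12, 0.18 and 0.06. For 1450051_at the 2 Df(16)A/+ hippocampal arrays of run 2 stood at 8.37 and 8.65 and the 8 of run 3 at 8.87 to 9.82. The 9 wild-type arrays of run 2 spanned 8.40 to 8.93. Within run 2 the 3 probe sets did not move alike. The 2 Df(16)A/+ arrays stood at 7.24 and 7.88 on 1420947_at, beside 7.52 to 8.33 in wild type. On 1420945_at they stood at 5.65 and 5.75, above the 4.71 to 5.31 of wild type. Leaving out single arrays gave 0.28 to 0.42 for 1420945_at. The tests of the difference between regions gave no call among the 16 member probe sets, beside 2.53% of 22586 probe sets, 2.25% higher and 0.279% lower (limma). Without adjustment, Asf1a 1423511_at and Atrx 1450051_at had p under 0.05 in it.

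**Figure D4:**
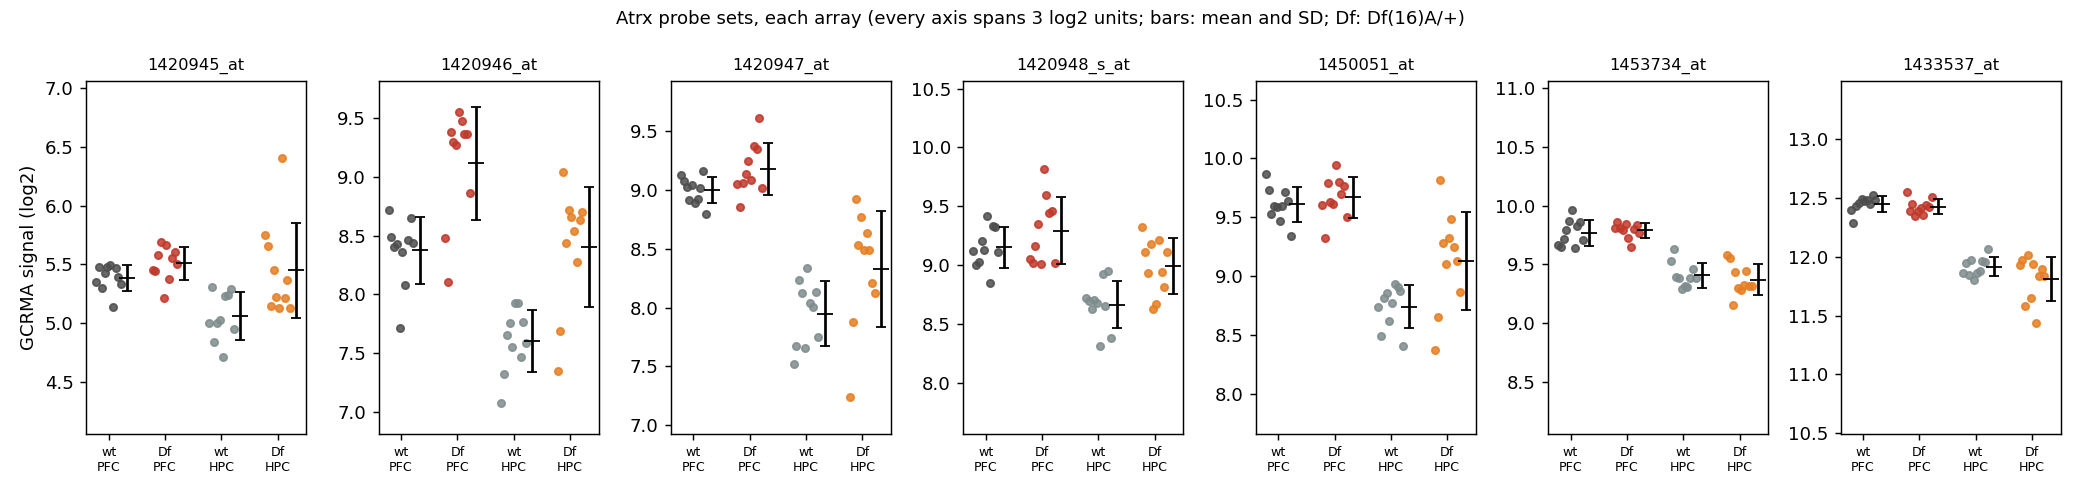
GCRMA signal (log2, vertical axis, each panel spanning 3 units) of the 7 Atrx probe sets, ordered by their mean, in each array by genotype (wt, wild type, Df, Df(16)A/+) and region, with mean and SD as bars. Probe set 1420946_at has 8 of 10 Df(16)A/+ arrays above all wild-type arrays in each region, and the brightest, 1433537_at, overlaps in both.

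The histone itself was not followed here. H3f3a and H3f3b, the genes of H3.3, each had 1 probe set of their own, which was under the filter, and 5 more probe sets were assigned to several H3.3 genes together and were not used for either gene.

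Other genes that handle H3.3 or its partner histones were followed as a list of 52, with 1 probe set per gene, the brightest. For the prefrontal cortex 13 of the 39 tested genes changed, 4 higher and 9 lower in Df(16)A/+, beside 19% of 10991 genes, 3.27% higher and 15.7% lower. The median difference of the 39 was −0.04. The shifts were small, and their count fell in fits that took the chip lot into account. Lot 2 held 6 of the 10 wild-type arrays and no Df(16)A/+ array, so such fits compared the genotypes through the 4 wild-type arrays of lot 1. With the lot as a block 1 of the 13 calls was left, that of Supt16, and those of the other genes named below were lost. Whether the lot or the smaller number of controls lowered the count was not tested. In lot 1 alone, with 4 wild-type and 10 Df(16)A/+ arrays, no listed gene passed.

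Among other histone variants 3 of 5 tested genes changed in the prefrontal cortex, 1 higher and 2 lower, beside 19% of all genes. A set of 5 is too small to be compared with that share. H2ax, the variant that is phosphorylated at DNA breaks, fell by 0.38 ± 0.088 (SE, from 10.02 ± 0.14 to 9.64 ± 0.26, SD, n = 10 each) to 76.7% (limma adjusted p = 0.0057). H2az1, a variant found at promoters, fell by 0.13, and Macroh2a1, a variant of silenced chromatin, rose by 0.18 (limma adjusted p = 0.0087 and 0.0036).

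Of 8 readers and writers of H3.3 chromatin 3 changed, beside 19% of all genes, in a set that is again small. Kmt2a, a methyltransferase for lysine 4 of H3, rose by 0.21, Brd2, which reads acetylated histones, rose by 0.27, and Setd2, which trimethylates lysine 36, fell by 0.18 (limma adjusted p = 0.0064, 0.0064 and 0.0095). In the set that recruits HIRA, 2 of 4 fell, beside 15.7% of all genes. These were Rpa1, by 0.16, and Rpa3, by 0.19, both subunits of the protein that coats single-stranded DNA (limma adjusted p = 0.020 and 0.011).

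Of 16 general chaperones and carriers of H3 and H4, 1 rose and 4 fell, beside 3.27% and 15.7% of all genes. Among them Dek, a chromatin protein that binds H3.3, fell by 0.13, and Ipo4, which imports H3 and H4 into the nucleus, fell by 0.15 (limma adjusted p = 0.0089 and 0.033). None of the 6 tested heterochromatin partners of ATRX and DAXX passed on its brightest probe set. Over all 80 tested probe sets of the list 8 were higher and 13 lower, beside 5.94% and 12.5% of all 21653 probe sets tested. Genes not called by their brightest probe set but by another were Cbx5, which encodes a heterochromatin protein (1 of 4 higher and 1 lower), Tlk1 (1 of 3 higher), Zmynd8 (1 of 4 higher), Zmynd11 (1 of 4 lower) and Npm1 (1 of 2 lower), named after their values were seen. Of the genes named as called by their brightest probe set, Kmt2a, Brd2, Rpa1 and Ipo4 each had 1 of 2 tested probe sets called. H2az1 had 2 of 2 lower. Also called by their brightest probe set were Nap1l1 (1 of 7 higher), Rbbp4 (1 of 4 lower) and Supt16, named after their values were seen. The 2 tested probe sets of Supt16 were called in opposite directions, 1 higher and 1 lower.

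In the hippocampus none of 37 tested genes of the list passed on its brightest probe set (limma), beside 3.66% of 10822 genes, 2.11% higher and 1.55% lower, and 8 had an unadjusted p under 0.05. Over all 73 tested probe sets of the list 5 were higher and 0 lower, beside 5.19% and 1.28% of all 21153 probe sets tested. The 5 were 2 of 3 of Tlk1, 1 of 7 of Nap1l1, 1 of 4 of Cbx5 and 1 of 3 of Zmynd8. These were again named after their values were seen. With the mean over the probe sets of each gene 2 genes were called, both higher. The median difference by the brightest probe set was −0.01. H2ax differed there by −0.07, Rpa1 by −0.04, Rpa3 by −0.01, Ipo4 by −0.002 and Brd2 by 0.05. H2az1 differed by −0.19, Dek by −0.11, Setd2 by −0.10, Kmt2a by 0.15 and Macroh2a1 by 0.14. Each of these had the same sign as in the prefrontal cortex, and none passed. The difference between regions was not tested for the list.

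**Figure D5:**
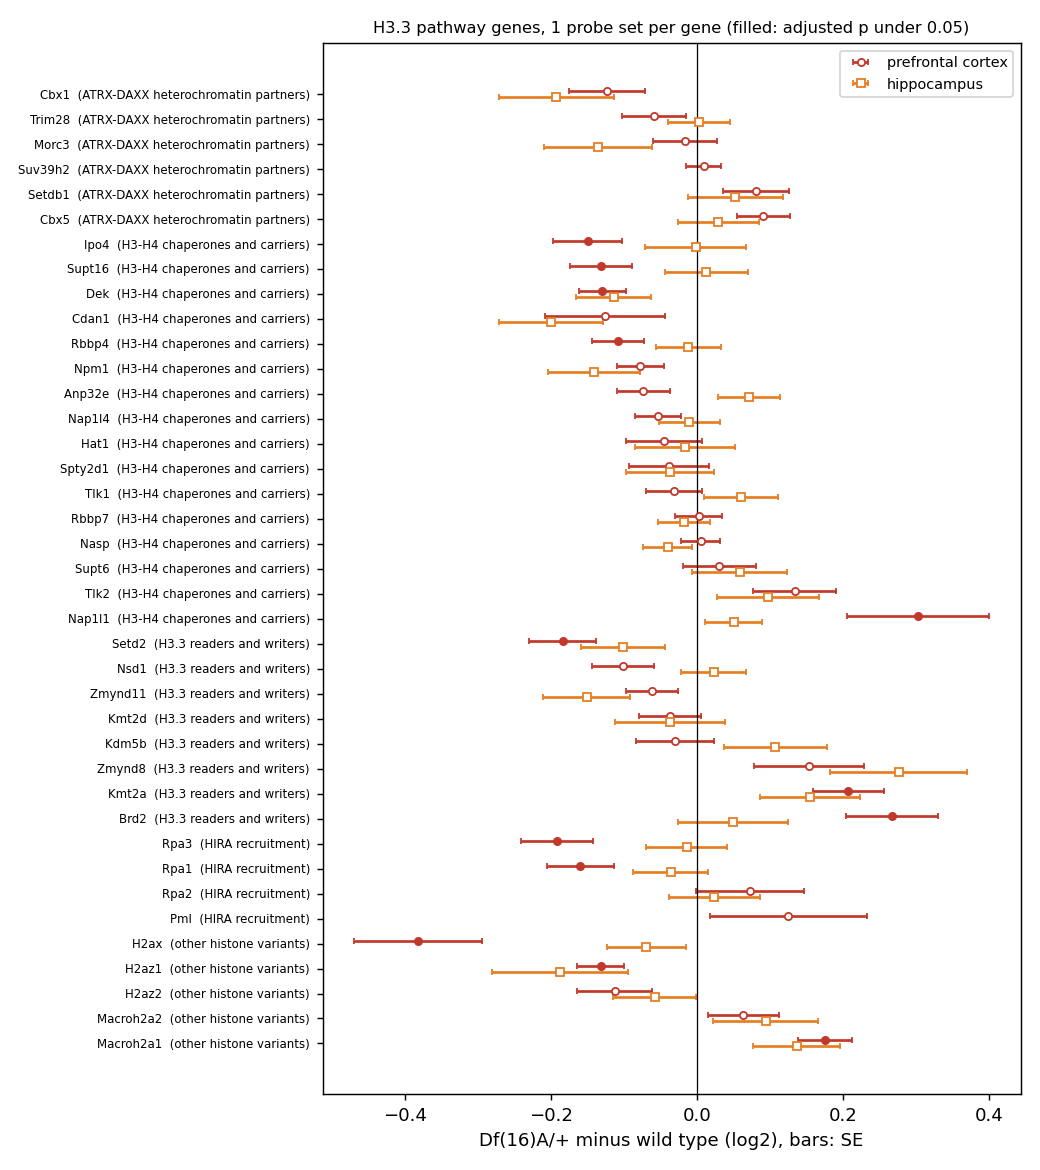
Difference between Df(16)A/+ and wild type (log2, horizontal axis, bars SE) for the genes of the H3.3 list tested in the prefrontal cortex, grouped by role, circles for the prefrontal cortex and squares for the hippocampus, filled where the adjusted p was under 0.05. Filled cortical points are 13, H2ax at −0.38 being the lowest, and no hippocampal point is filled.

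Cell type markers were read beside the shares of all genes called. These were 3.27% higher and 15.7% lower in the prefrontal cortex, and 2.11% and 1.55% in the hippocampus. Of 4 measured markers of meninges and mural cells 3 were lower in Df(16)A/+ prefrontal cortex, with a summed level of 11.29 to 12.13 beside 11.46 to 12.04 in wild type. There 1 of 4 microglial markers was lower (11.65 to 11.92 beside 11.70 to 12.43), and 2 of 5 neuronal markers were higher (16.66 to 16.83 beside 16.65 to 16.79). Of 5 astrocyte markers 1 was higher (15.03 to 15.24 beside 14.96 to 15.14). In the hippocampus 1 of 5 neuronal markers was higher (15.87 to 16.00 beside 15.81 to 15.88) and 1 of 3 markers of meninges and mural cells was lower (10.45 to 11.19 beside 10.63 to 11.10). There 2 of 8 hippocampal markers were higher (13.11 to 13.57 beside 13.24 to 13.47), as was 1 of 7 neocortical markers (12.22 to 12.54 beside 12.23 to 12.36). Of 8 markers of proliferating cells 2 were measured in each region, and 1 of them was lower in Df(16)A/+ prefrontal cortex (10.80 to 11.16 beside 11.01 to 11.22). No measured marker of oligodendrocytes or endothelium passed in either region, and none of astrocytes, microglia or choroid plexus passed in the hippocampus. The summed level of the 3 choroid plexus markers varied widely there, from 12.33 to 15.48 in Df(16)A/+ and from 11.85 to 15.44 in wild type. The part of cell composition in the differences of the members and of the list was not tested.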

How the data were processed

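Per the submitters' processing notes GCRMA made the deposited values, which are on a log2 scale, from Affymetrix Mouse430_2 arrays. Its version and which arrays went into it jointly were not given in the sources. The deposited array records were used for hybridization run, chip lot and fluidics station. Groups came from the sample titles, and the number of arrays limits the precision.

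For each region limma 3.58.1 (R 4.3.3, functions lmFit and eBayes) was run without a covariate on the probe sets that exceeded 4 in 10 or more arrays, two-sided, with Benjamini-Hochberg adjustment at 0.05. The package statmod 1.5.0 was used for the random block. The difference between regions was a contrast over 40 arrays. It treated all 40 arrays as separate, and the sample titles do not say whether the 2 regions came from the same mice. With genotype and number as a random block Hira had limma adjusted p = 0.36. The fit was tested on simulated data.

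Members and lists were chosen with earlier results of these data known. Named were all member probe sets, H3f3a and H3f3b, up to 10 called list genes with the smallest p per region, and the 5 genes most like Hira by each of 2 measures. Supt16, Rbbp4, Nap1l1, Cbx5, Tlk1, Zmynd8, Zmynd11 and Npm1 were named after their values were seen. Probe sets were named by the platform annotation (34945 with 1 gene, 932 with several), and 64 control probe sets were left out. All 8 members matched a RefSeq promoter. No 2 arrays held identical values.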

Additional observations from a re-analysis of the deposited data

Results flagged for a closer look

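In 6 of 64 groups of 10 arrays (16 tested member probe sets in 4 groups), the highest array stood further from the next than Dixon's 95% critical value for the share of the group's range allows, and chance gives about 1 in 20. On Ubn1 1433780_at, Df(16)A/+ hippocampus replicate 5 was at 7.41, with the next array at 7.22, and wild-type hippocampus replicate 1 was at 7.38, with the next also at 7.22. Df(16)A/+ prefrontal cortex replicate 10, the one array of its group in run 3, was high on 2 probe sets: Ubn1 1438401_at at 9.60 (next 9.40) and Cabin1 1433686_at at 8.76 (next 8.55). On Asf1a 1459882_at, wild-type hippocampus replicate 2 was at 4.97 (next 4.74). On Atrx 1420945_at, Df(16)A/+ hippocampus replicate 7, the one array of chip lot 4, was at 6.41 (next 5.75).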

How the results depend on the processing

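Hira kept its direction and its call in the prefrontal cortex under all 15 other settings (−1.11 to −0.98) and with each array left out (−1.05 to −0.96). In the hippocampus it did so under 13 of 14 (−0.86 to −0.76) and with each array left out (−0.84 to −0.77). The exception was run 2 alone, at −0.84 (adjusted p = 0.073), with 2 Df(16)A/+ arrays, and a filter above 6 left Hira untested there. The number of member probe sets called in the prefrontal cortex was 1 in place of 2, Hira alone, with run, lot, or run and lot as blocks, in run 4 alone and in lot 1 alone, 3 with no filter (Hira 1450049_a_at added), and 2 to 3 with each array left out. Atrx 1420946_at gave 0.56, 0.60, 0.41, 0.62 and 0.60 under these (adjusted p = 0.053, 0.11, 0.46, 0.14 and 0.16). In the hippocampus the count of 4 became 2 with no filter, quantile normalization, the lot block, run and lot blocks, lot 1 alone or the actin covariate, 1 with the run block and 0 in run 2 alone. It became 7 in 1 fit of 40 arrays and 8 with the replicate block, and 2 to 7 with each array left out. Hippocampal Atrx 1420946_at turned to −0.065 with the run block, with run and lot blocks and in run 2 alone, where 2 Df(16)A/+ arrays carry the comparison, and fell to 0.66 with the lot block (adjusted p = 0.066). The H3.3 list gave 8 in place of 13 genes in the prefrontal cortex with the run or the station block, 1 with the lot block (Supt16), 1 with run and lot blocks, 1 in run 4 alone (Kmt2a), 0 in lot 1 alone, and 9 to 15 with each array left out. In the hippocampus it gave 1 with quantile normalization, 2 with array weights, 3 in 1 fit, 2 with the mean over probe sets, and 0 to 2 with each array left out. Median centring gave 1 member call in the difference between regions in place of 0. Where nothing else is stated, the cause was not tested. Differences that passed under no setting were not judged by sign.

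Same-numbered arrays were not shown to be pairs: deviations of wild-type and Df(16)A/+ arrays of 1 number correlated at −0.17 to 0.34 for the cortex (over 0.1 in 2 of 10) and −0.14 to 0.31 for the hippocampus (over 0.1 in 4 of 10). Between the regions, arrays of 1 genotype and number correlated at −0.29 to 0.16 in wild type and −0.24 to 0.23 in Df(16)A/+. These were over 0.1 in 5 of 10 for each genotype. With the replicate block Hira was −1.00 and −0.81 (adjusted p = 0.00047 and 3.4e-05).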
